A study of Mus musculus with 8 samples.

Results

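The genes described here are the Hox genes of the 4 mouse clusters and a set of other homeobox genes that mark position and cell lineage, namely the Irx, sine oculis-related, Pbx, Meis, Emx, Tgif2, POU, Cux and Satb genes. They were matched by gene symbol, and the symbols were chosen with earlier results of these data known. Of 14145 genes in the table, 49 matched, and 29 of these are Hox genes: 10 of Hoxa, 8 of Hoxb, 8 of Hoxc and 3 of Hoxd. The GENCODE M21 annotation holds 79 genes that match the same symbols, and the other 30 (10 of them Hox genes, 6 from Hoxd) are not analysed here.

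Homeobox genes encode transcription factors that bind DNA through the homeodomain. Hox genes stand in clusters in which gene order follows the body axis, so that low-numbered paralogues mark the head and neck and high-numbered paralogues the lower trunk and limbs. Pbx and Meis proteins, of the TALE class, bind DNA together with Hox proteins. Cells taken from adult organs usually keep the Hox pattern of the place they came from. In the kidney, the Hox11 paralogues are needed in the mouse for the metanephric kidney to form, and Hoxb7 marks the ureteric bud and the collecting duct.

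The libraries are bulk RNA-seq of untreated primary tubular epithelial cells (TECs), isolated from mouse kidney and grown in DMEM/F12 medium with fetal bovine serum. The series compares 4 libraries of Aldh2 TEC-KO cells (KO 1 to 4) with 4 of Aldh2 control cells (WT 1 to 4), in the setting of tubular metabolism and susceptibility to renal injury. Aldh2 encodes the mitochondrial aldehyde dehydrogenase that oxidises acetaldehyde. The sources used here do not give the Cre line that deletes Aldh2 in tubular epithelium, the age or number of the mice, or whether each library came from its own animal. The p-values therefore rest on library-to-library spread, some of which may be technical. The genotype field of the KO samples names ALDH2, ALDH3, ALDH4 and ALDH5 in turn, and groups were therefore taken from the titles. Aldh2 was at 0.88 to 1.64 FPKM in the KO libraries, against 23.69 to 31.08 FPKM in the WT libraries (log2 difference -3.61, limma adjusted p = 3.43e-05). FPKM are reads or fragments scaled by gene length and sequencing depth, so levels of different genes can be set side by side.

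Recovered depth was 17890000 to 18750000 reads or fragments per KO library and 17050000 to 17750000 per WT library, and the members held 3 to 5726 reads in a library. By Xist and Y-linked transcripts KO 1 and 2 were female, while KO 3, KO 4 and the 4 WT libraries were male. The summed Y-linked transcripts were 5.79 FPKM in KO 3 and 12.16 FPKM in KO 4, against 19.96 to 34.1 FPKM in WT. The reason for the lower sums in KO 3 and 4 was not tested. The KO libraries varied more among themselves: the spread on the log2 scale was larger in KO than in WT for 42 of 49 members, beside 83.1% of all genes. The median difference over all genes moved with gene length, at 0.15 for the quartile of shortest genes and -0.33 for that of the longest. Marker lists also differed between groups or libraries. Summed levels of 3 measured loop of Henle and distal tubule markers were 2.00 to 5.13 FPKM in KO and 6.19 to 36.9 FPKM in WT, and those of 6 collecting duct markers were 8.74 to 36.3 FPKM in KO and 34.2 to 49.2 FPKM in WT. Sums for 14 macrophage and leukocyte markers were 232 to 1760 FPKM in KO and 95.3 to 1060 FPKM in WT, and for 10 fibroblast and pericyte markers 601 to 1780 FPKM in KO and 141 to 1200 FPKM in WT. The fibroblast and pericyte sum is mostly Acta2, the smooth-muscle actin (mean 1040 FPKM in KO and 440 FPKM in WT), while 8 of the 10 markers had the lower log2 mean in KO (median difference -0.75). Among those, Pdgfrb (mean 1.59 FPKM in KO and 7.66 FPKM in WT) and Col3a1 (1.40 FPKM in KO and 8.33 FPKM in WT) did not overlap between the groups. These WT means were raised by WT 1. It held 17.25 FPKM of Pdgfrb and 23.64 FPKM of Col3a1, against 3.62 to 5.41 and 2.28 to 4.23 FPKM in WT 2 to 4. The macrophage and leukocyte sum was likewise 1060 FPKM in WT 1, against 95.3 to 120 FPKM in WT 2 to 4. For 5 endothelial markers the sums were 2.34 to 4.13 FPKM in KO and 6.08 to 8.68 FPKM in WT. For 3 urothelial markers they were 11.8 to 62.5 FPKM in KO and 15.5 to 28.7 FPKM in WT. Those of 7 podocyte and parietal markers were 115 to 207 FPKM in KO and 186 to 250 FPKM in WT. Of 15 proximal tubule markers 6 were measured, with sums of 13.1 to 57.4 FPKM in KO and 18.7 to 77.1 FPKM in WT. Among the defining tubular markers, Umod, Slc12a1, Slc34a1 and Aqp2 are not analysed here, and Lrp2, the megalin receptor of proximal tubule, was present in all 8 libraries at 1.24 to 15.15 FPKM. The part of these cell types in the results on homeobox genes was not tested.

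The cultured cells carried a trunk pattern in both groups, led by Hoxb and by paralogue numbers 6 to 10. Hoxb9, a lower-trunk Hox gene, was the Hox gene of highest level in each of the 8 libraries, at 78.22, 101.45, 96.63 and 106.09 FPKM in KO 1 to 4, against 96.94, 95.08, 96.32 and 82.00 FPKM in WT 1 to 4. The groups overlapped, and the log2 difference was 0.04 (SE 0.17, limma adjusted p = 0.904). The next levels were those of its neighbours in the cluster, Hoxb6, Hoxb8 and Hoxb7, which took ranks 2 to 4 among Hox genes in every library in changing order. Hoxb6 averaged 38.3 ± 3.80 FPKM in KO and 46.0 ± 4.83 FPKM in WT (SD, n = 4 each, as in all such values), Hoxb8 38.6 ± 6.78 FPKM in KO and 42.1 ± 3.64 FPKM in WT, and Hoxb7 41.7 ± 10.8 FPKM in KO and 38.0 ± 2.48 FPKM in WT. The ranges of these 3 neighbours overlapped in both groups. By mean level there followed Hoxd8, Hoxd9, Hoxa10, Hoxc10, Hoxd10 and Hoxb4, with means over all libraries between 20.5 and 10.3 FPKM. In all, 26 of the 29 Hox genes had a mean of at least 1 FPKM and 10 a mean of at least 10 FPKM.

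**Figure D1:**
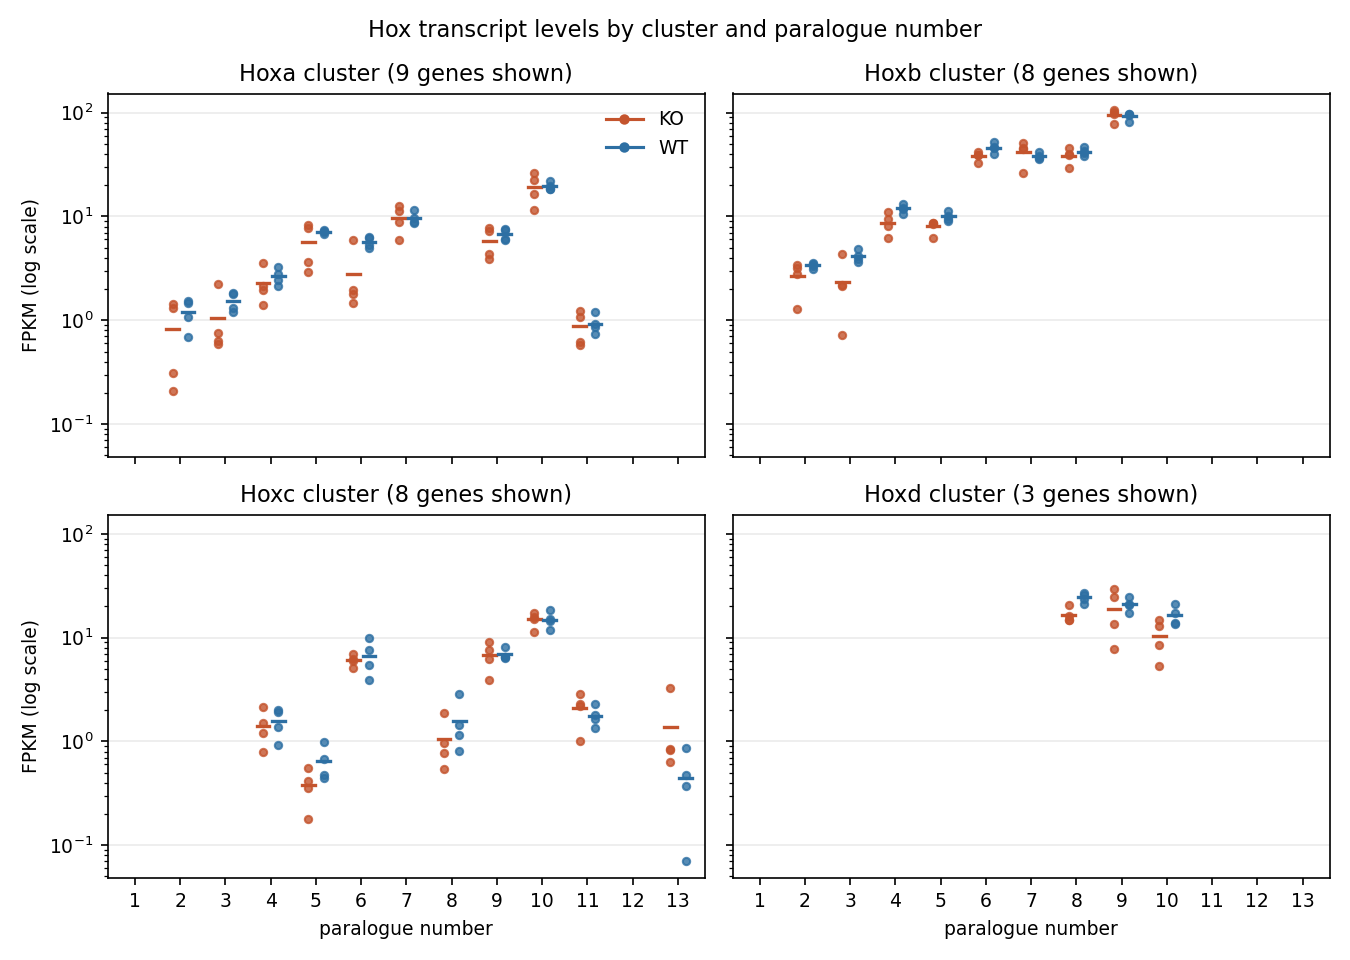
FPKM (log scale) of 28 Hox genes against paralogue number, one panel per cluster; each point is 1 library, with the 4 KO libraries left of the 4 WT libraries, and lines mark group means. Hoxb9, at 78.22 to 106.09 FPKM, lies above all other Hox genes, while Hoxc13, at the end of its cluster, spans 0.07 to 3.24 FPKM.

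Summed over each cluster, Hoxb made up 59.5% to 67.6% of the Hox level in KO libraries and 60.4% to 62.6% in WT libraries. Hoxa held 9.22% to 18.3% in KO and 13.4% to 15.5% in WT, Hoxd 9.13% to 15.7% in KO and 12.9% to 17.4% in WT, and Hoxc 7.47% to 10.5% in KO and 7.01% to 11.1% in WT. All 4 ranges overlapped between the groups. By paralogue number, numbers 9 and 10 together held 45.7% to 47.9% of the Hox level in KO libraries and 39.5% to 46.3% in WT libraries, numbers 5 to 8 held 44.3% to 47.2% in KO and 45.8% to 51.7% in WT, and numbers 1 to 4 held 5.25% to 7.84% in KO and 6.45% to 7.92% in WT. Paralogues 11 to 13 added 0.653% to 1.79% in KO and 0.700% to 0.879% in WT. The summed Hox level was 337.5, 367.9, 372.1 and 389.1 FPKM in KO 1 to 4, against 405.5, 383.6, 410.0 and 408.8 FPKM in WT 1 to 4. KO 4 alone lay within the range of the WT libraries. These are sums of FPKM without further scaling. The size factors of median-ratio scaling were 0.991, 1.085, 0.893 and 0.980 in KO 1 to 4, against 1.036 to 1.044 in WT. Dividing by them would raise KO 3 most and lower KO 2 most, so the order of the summed levels depends on scaling.

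**Figure D2:**
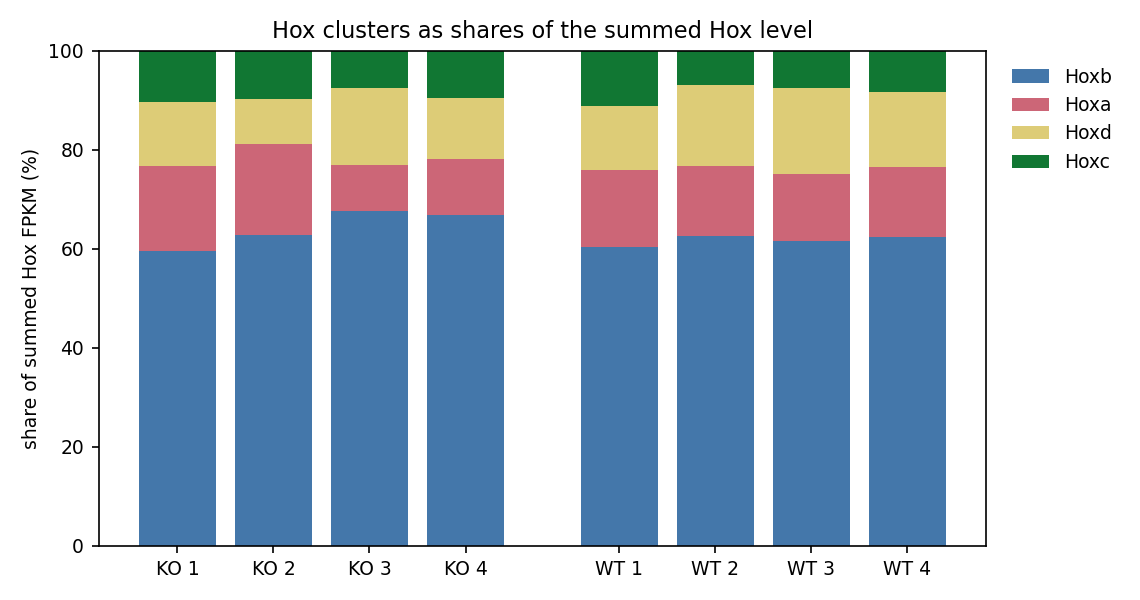
Share of the summed Hox FPKM (%) taken by each of the 4 clusters in each library, KO left and WT right. Hoxb is the main part of every bar (59.5% to 67.6%), and the Hoxa part is smallest in KO 3 (9.22%) and KO 4 (11.3%).

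No member passed the test between the groups. With limma on log2(FPKM + 1), adjusted over all 14145 genes at 0.05, 0 of 49 members were called, beside 0.0778% of all genes (0.0212% higher, 0.0566% lower). By limma-voom on recovered reads the count was also 0, beside 0.0637% (0.0142% higher, 0.0495% lower). At an unadjusted p below 0.05 there were 10 members, all lower in KO, beside 11.6% of all genes lower and 7.58% higher at that level (19.2% together). With limma-voom 8 members were at that level (16.3%, beside 19.6% of all genes). The groups did not overlap for 4 members lower in KO and 1 higher, beside 6.86% and 4.76% of all genes (11.6% together). A share near that of all genes is no result about these genes. Leaving out KO 2 gave 4 members past the adjusted threshold by limma, all lower, among them Hoxa6, Six4 and Pou2f1, beside 8.05% of all genes (2.77% higher, 5.28% lower). Of the 49, Six4 and Pou2f1 carry a down mark in the authors' deposited table and none an up mark, while 5.71% of all genes carry either mark.

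Most members had the lower mean in KO. The difference was below 0 for 38 of 49 members, beside 55.5% of all genes, and above 0 for 11, beside 44.5%, with a median log2 difference of -0.24 over the members and -0.06 over all genes. After fitting out length and GC content in each library these medians were -0.28 and 0.00. By library, the median deviation of the members from the WT mean was -0.25, 0.06, -0.34 and -0.17 in KO 1 to 4, against 0.07, -0.04, -0.02 and 0.04 in WT 1 to 4. KO 2 thus lay among the WT libraries and the other 3 KO libraries below them. Over all genes the same medians were -0.06, 0.04, -0.17 and -0.08 in KO 1 to 4, against -0.01, 0.00, -0.01 and 0.01 in WT 1 to 4. There too KO 2 was the highest and KO 3 the lowest KO library, so part of this pattern is not particular to the members. In bulk RNA, fewer cells of a type and less RNA per cell cannot be told apart.

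**Figure D3:**
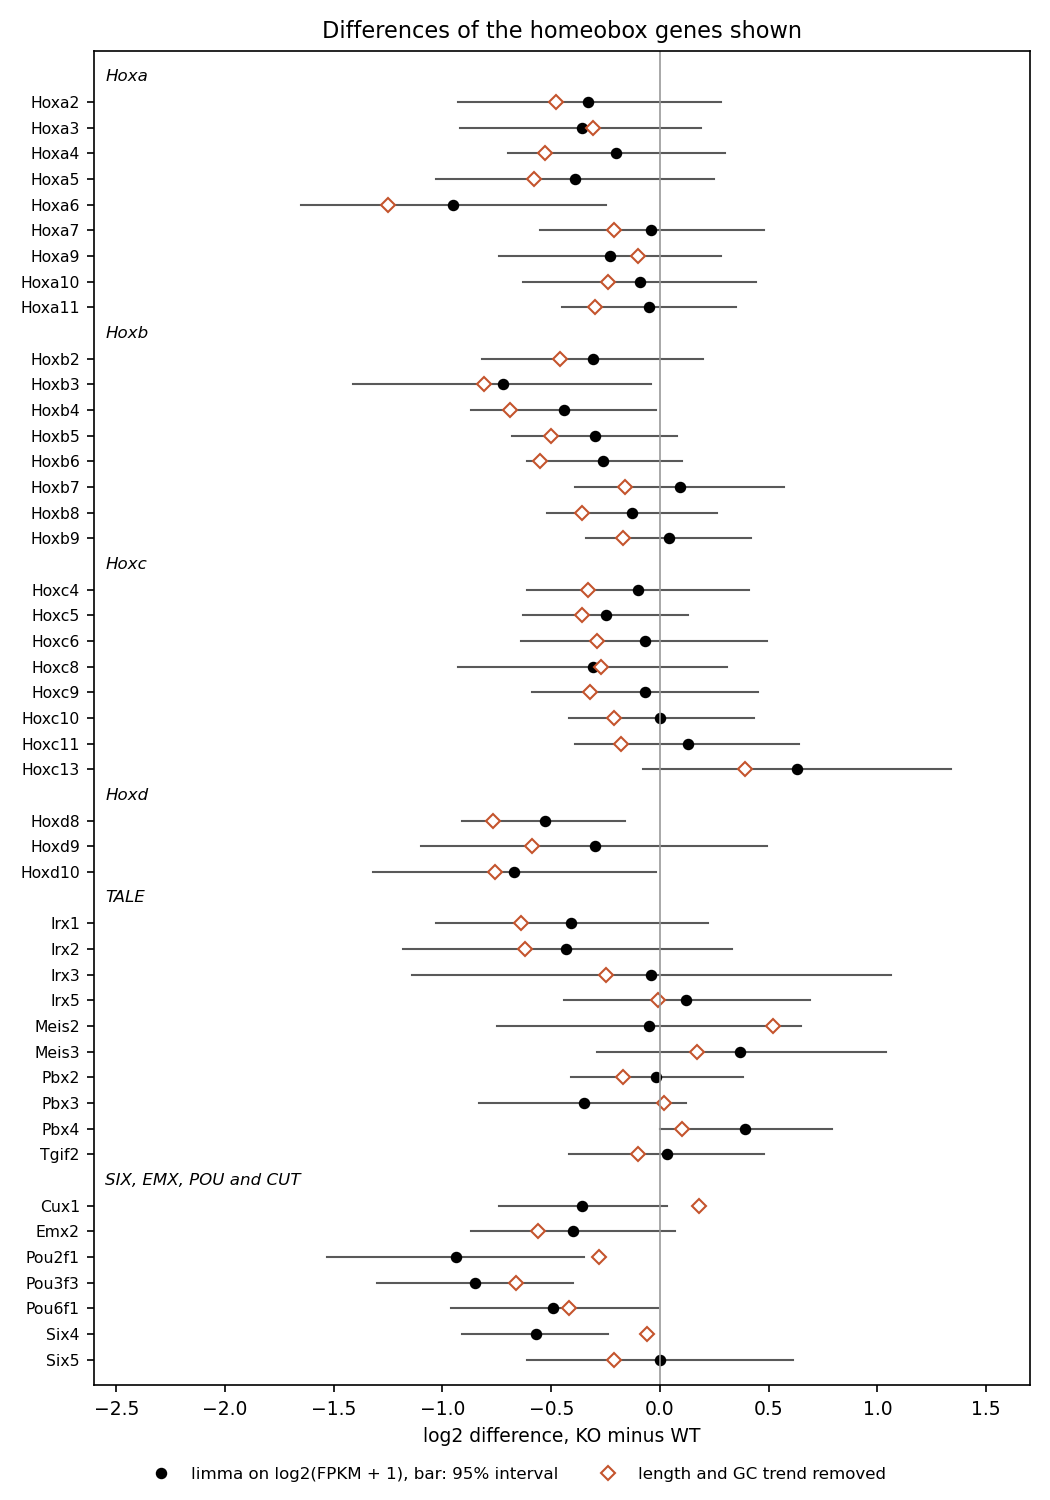
Log2 difference (KO minus WT) of 45 members by family, on the log2(FPKM + 1) scale; filled points with bars are the limma estimate and its 95% interval, open diamonds the estimate adjusted for length and GC. Most estimates lie below 0 (36 of 45), and the diamonds of Six4 and Pou2f1 lie nearer to 0 than their filled points.

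Among the POU, EMX and sine oculis-related factors, the lowest p of all members belonged to Pou3f3 (Brn1), which in the mouse is needed for the loop of Henle and distal tubule to form. Pou3f3 was at 5.29, 4.10, 7.87 and 6.06 FPKM in KO 1 to 4, against 9.73, 12.13, 12.48 and 10.13 FPKM in WT 1 to 4. All KO values lay below all WT values (log2 difference -0.85, SE 0.20, adjusted p = 0.123). The level in KO was 52.4% of that in WT, and the difference was -0.66 adjusted for length and GC. Over the same libraries the summed loop of Henle and distal tubule markers also did not overlap, as given above. Of 10 such markers 3 were measured. By gene the groups did not overlap for Cldn19, but they did for Trpm6 and Cldn16. The sum was 36.9 FPKM in WT 4, against 6.19 to 10.8 FPKM in WT 1 to 3, while Pou3f3 was not highest in WT 4. A link between Pou3f3 and these markers was not tested.

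Six4, a homeodomain factor of early kidney and muscle development, was low throughout, at 0.62, 0.69, 0.37 and 0.40 FPKM in KO, against 1.26, 1.38, 1.22 and 1.15 FPKM in WT. Again the groups did not overlap (log2 difference -0.57, SE 0.15, adjusted p = 0.144). Six4 has 10855 bp of exons, among the longest of the members, and its length- and GC-adjusted difference was -0.06. Both differences are on the log2(FPKM + 1) scale, which understates those of genes this low. Limma-voom, without that adjustment, gave -1.23. How much of the Six4 difference goes with length was not tested. Six5 was at 1.86 to 5.19 FPKM in KO and 2.67 to 4.47 FPKM in WT. Its ranges overlapped widely between the groups.

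Pou2f1 (Oct1), a broadly expressed factor that binds the octamer motif, was at 0.72, 2.20, 0.36 and 0.73 FPKM in KO, against 2.74, 2.57, 2.05 and 3.27 FPKM in WT. KO 2 reached into the WT range and the other 3 KO libraries stayed below it (log2 difference -0.94, SE 0.26, adjusted p = 0.154). Without KO 2 the difference was -1.19 and passed (limma adjusted p = 0.0248). It did not pass with any other single library left out (limma adjusted p 0.141 to 0.434). Pou2f1 too is long, with 16597 bp of exons, and adjusted for length and GC its difference was -0.28 on the log2(FPKM + 1) scale. Limma-voom, without that adjustment, gave -1.61. Of the Pou2f1 exons 18.1% are shared with Cd247 on the opposite strand. The sources used here do not say whether counting used strand, so reads of such overlaps cannot be assigned. Pou6f1, a POU factor known from brain, was at 2.92, 6.58, 4.92 and 4.72 FPKM in KO, against 7.40, 6.81, 6.85 and 6.52 FPKM in WT (log2 difference -0.49, SE 0.21, adjusted p = 0.252). Of its KO libraries KO 2 alone reached the WT range.

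Emx2, which the mouse needs for the ureteric bud to branch and the kidney to form, had the highest mean level outside the Hox genes. It was at 20.23, 17.35, 11.76 and 11.38 FPKM in KO 1 to 4, against 18.85, 20.30, 22.83 and 17.44 FPKM in WT 1 to 4. KO 1 lay within the WT range, KO 2 just below it, and KO 3 and 4 well below (log2 difference -0.40, SE 0.21, adjusted p = 0.318). Cux1, a CUT-domain repressor linked to growth of kidney cells, averaged 12.1 ± 2.50 FPKM in KO and 15.6 ± 1.00 FPKM in WT. It has 20024 bp of exons, and its log2 difference of -0.36 became 0.18 adjusted for length and GC. The 9 genes of the POU, EMX, CUT and sine oculis-related families together had a median difference of -0.40, or -0.21 adjusted for length and GC. Before that adjustment 8 of the 9 were below 0, beside 55.5% of all genes.

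**Figure D4:**
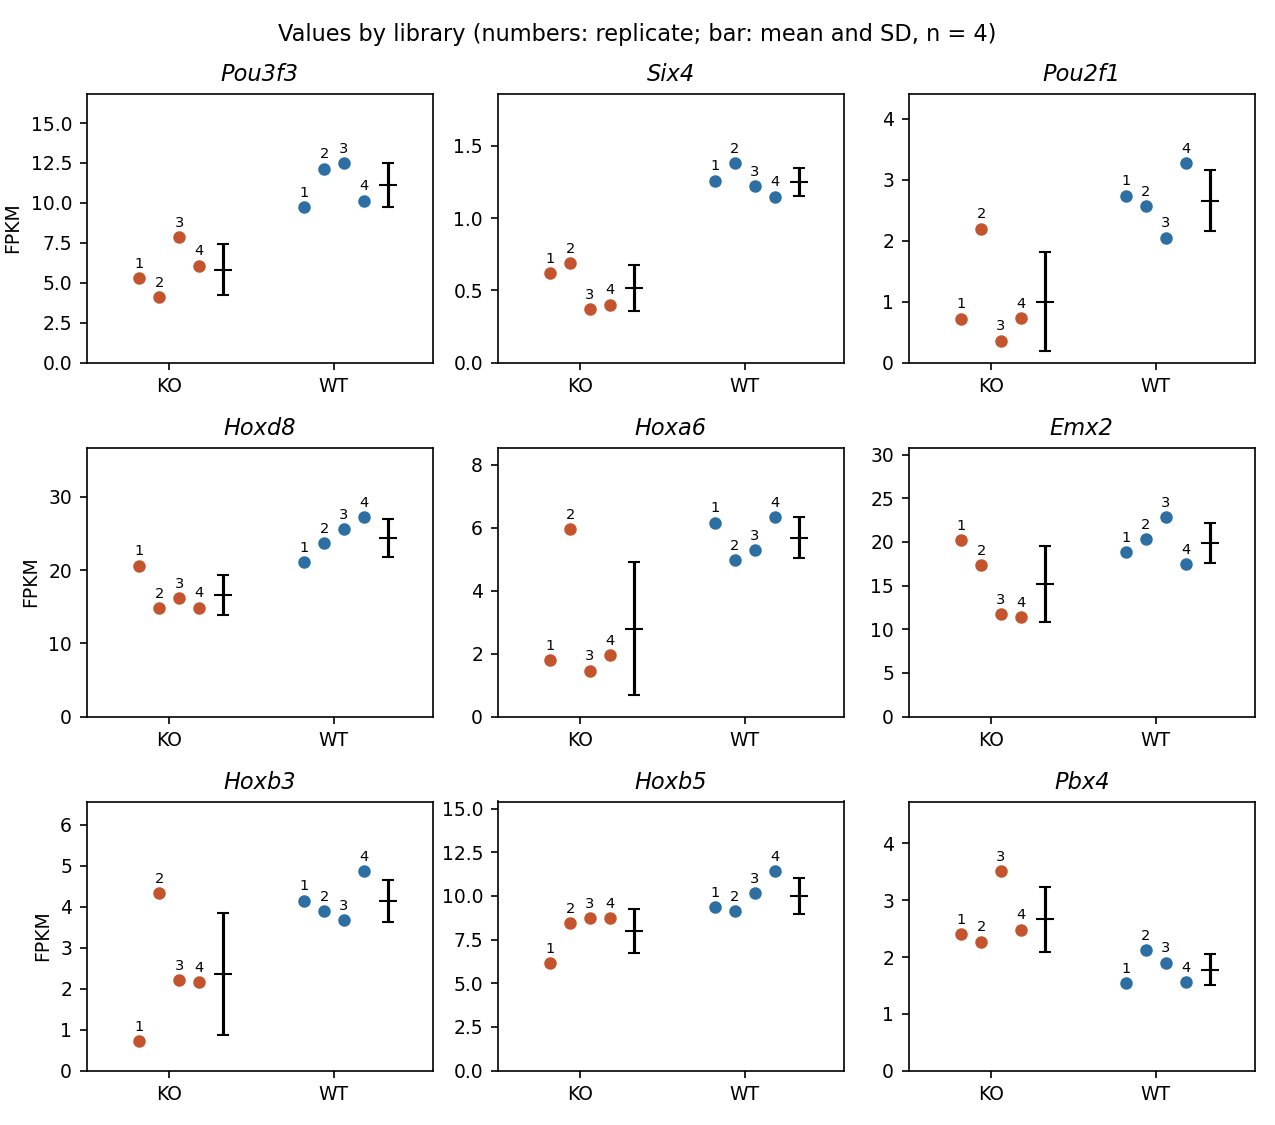
FPKM of 9 members in each library, KO left and WT right, with replicate numbers at the points and the mean and SD beside them. The groups do not overlap for Pou3f3, Six4, Hoxd8, Hoxb5 and Pbx4, and KO 2 lies in the WT range for Pou2f1, Hoxa6 and Hoxb3 and KO 1 in that of Emx2.

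The promoters of the members whose groups did not overlap in unscaled FPKM are shown to give the sequence context of those genes. Each has 250 bases before and 50 after the RefSeq start (GRCm38.p6), with CpG dinucleotides in capitals. Windows were found for 28 of the 49 members, and of the 5 non-overlapping genes for Pou3f3 (chr1:42695518-42695817, plus strand), Six4 (chr12:73113376-73113675, minus strand), Hoxd8 (chr2:74704365-74704664, plus strand) and Pbx4 (chr8:69832374-69832673, plus strand).
Pou3f3: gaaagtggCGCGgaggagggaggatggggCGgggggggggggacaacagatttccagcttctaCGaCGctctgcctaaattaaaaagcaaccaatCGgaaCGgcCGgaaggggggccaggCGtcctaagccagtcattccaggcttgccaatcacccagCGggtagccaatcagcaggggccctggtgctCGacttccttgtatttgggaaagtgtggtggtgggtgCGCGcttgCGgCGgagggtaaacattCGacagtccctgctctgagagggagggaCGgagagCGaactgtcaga
Six4: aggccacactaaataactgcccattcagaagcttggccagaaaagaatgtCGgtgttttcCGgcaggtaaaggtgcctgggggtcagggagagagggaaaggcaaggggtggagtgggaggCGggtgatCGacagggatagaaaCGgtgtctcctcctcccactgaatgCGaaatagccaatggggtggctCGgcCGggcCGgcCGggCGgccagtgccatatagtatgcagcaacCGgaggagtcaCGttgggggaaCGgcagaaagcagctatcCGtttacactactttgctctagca
Hoxd8: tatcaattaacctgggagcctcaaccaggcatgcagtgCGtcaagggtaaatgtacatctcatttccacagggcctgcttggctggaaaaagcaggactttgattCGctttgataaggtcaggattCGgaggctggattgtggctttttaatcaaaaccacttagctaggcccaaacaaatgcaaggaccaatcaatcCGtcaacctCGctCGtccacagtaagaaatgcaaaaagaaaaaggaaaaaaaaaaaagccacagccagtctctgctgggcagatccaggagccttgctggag
Pbx4: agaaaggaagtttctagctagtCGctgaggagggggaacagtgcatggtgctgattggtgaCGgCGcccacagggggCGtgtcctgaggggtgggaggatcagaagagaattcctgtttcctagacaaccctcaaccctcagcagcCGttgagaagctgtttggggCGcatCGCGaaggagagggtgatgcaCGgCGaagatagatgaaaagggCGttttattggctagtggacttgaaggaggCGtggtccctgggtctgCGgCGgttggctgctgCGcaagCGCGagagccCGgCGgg
Pou3f3 held 18, Six4 15, Hoxd8 6 and Pbx4 19 CpG. The median was 18.5 CpG over the 28 members' windows and 7 over all 32851 windows of that length, so Hoxd8 alone of the 4 lies below the median of all windows. Both strands were searched for the motif TGACAG of MEIS, PKNOX and TGIF factors, which 4 of 28 member windows held (Hoxa2, Hoxa3, Pou3f3 and Six5), beside 19.2% of all windows. The HOX and PBX motif TGATNNAT was in 2 (Hoxa2 and Hoxb8), beside 8.85%, and the octamer ATGCAAAT in 0, beside 1.74%. These are matches of letters and do not show binding.

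In the Hoxd cluster, on chromosome 2, the 3 measured genes had lower means in KO. Hoxd8 was at 20.62, 14.79, 16.18 and 14.86 FPKM in KO 1 to 4, against 21.10, 23.67, 25.57 and 27.22 FPKM in WT 1 to 4. The groups did not overlap in unscaled FPKM, and KO 1 came close to WT 1 (log2 difference -0.53, SE 0.17, adjusted p = 0.176). Median-ratio size factors were 0.991 for KO 1 and 1.043 for WT 1. Dividing by them puts KO 1 above WT 1, so the groups then overlap. Adjusted for length and GC, the difference was -0.77. Hoxd10, a lower-trunk and limb gene, was at 14.68, 5.39, 12.95 and 8.58 FPKM in KO, against 13.74, 17.35, 20.96 and 13.53 FPKM in WT. KO 1 reached into the WT range (log2 difference -0.67, SE 0.29, adjusted p = 0.249). Hoxd9 behaved differently within KO: it was at 7.81, 13.42, 29.18 and 24.53 FPKM in KO 1 to 4, against 17.38, 21.09, 24.70 and 20.63 FPKM in WT 1 to 4. The female KO 1 and 2 lay below every WT library and the male KO 3 and 4 in or above their range (log2 difference -0.30, SE 0.35, adjusted p = 0.636).

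Hoxa, on chromosome 6, when summed, had KO 1 and 2 above KO 3 and 4, the reverse of Hoxd9. Its summed level was 58.2, 67.3, 34.3 and 43.8 FPKM in KO 1 to 4, against 63.0, 54.3, 54.8 and 58.0 FPKM in WT 1 to 4. KO 3 and 4 thus lay below all other libraries. By gene, this order held for Hoxa2, Hoxa5, Hoxa9 and Hoxa10, and the other measured Hoxa genes overlapped. Hoxa7 was lowest in KO 1, at 5.91 FPKM. Of all genes 36.2% had KO 1 and 2 both above KO 3 and 4. Hoxa5, known for its role in lung and axial skeleton, was at 7.73, 8.25, 3.66 and 2.93 FPKM in KO, against 7.10, 7.28, 6.81 and 7.40 FPKM in WT (log2 difference -0.39, SE 0.28, adjusted p = 0.446). The WT libraries lay close together, with KO 1 and 2 above them all and KO 3 and 4 far below. Hoxa10, the most abundant Hoxa gene and a lower-trunk and uterine gene, was at 26.11, 22.34, 11.51 and 16.56 FPKM in KO, against 21.90, 19.72, 18.51 and 18.34 FPKM in WT (log2 difference -0.09, SE 0.24, adjusted p = 0.84). It too had KO 1 and 2 above and KO 3 and 4 below the WT range. Hoxa9, which neighbours it, averaged 5.79 ± 1.97 FPKM in KO and 6.75 ± 0.867 FPKM in WT.

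Hoxa6, a short gene with 874 bp of exons, had the largest difference among Hox genes on the log2(FPKM + 1) scale. With a pseudocount of 0.1 Hoxc13 exceeded it (1.39, against -1.22 for Hoxa6), as it did with limma-voom (1.78, against -1.17). Hoxa6 was at 1.80, 5.95, 1.46 and 1.95 FPKM in KO 1 to 4, against 6.16, 4.97, 5.28 and 6.33 FPKM in WT 1 to 4. KO 2 lay within the WT range and the other 3 KO libraries far below it (log2 difference -0.95, SE 0.31, adjusted p = 0.182). Without KO 2 the difference was -1.29 and passed (limma adjusted p = 0.0213). It did not pass with any other single library left out (limma adjusted p 0.163 to 0.438). Over all 8 libraries, adjusted for length and GC, the difference was -1.25. The recovered reads were 24 to 96 per library. Hoxa7 beside it averaged 9.69 ± 2.96 FPKM in KO and 9.67 ± 1.30 FPKM in WT.

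The low-numbered Hoxa genes stayed near or under a few FPKM. Hoxa2, a hindbrain and second-arch gene, was at 1.32, 1.42, 0.21 and 0.31 FPKM in KO, against 1.47, 0.69, 1.08 and 1.53 FPKM in WT (log2 difference -0.33, SE 0.27, adjusted p = 0.502). KO 1 and 2 were within the WT range and KO 3 and 4 below it. Hoxa3, needed for thymus and parathyroid, was at 0.63, 2.24, 0.59 and 0.75 FPKM in KO, against 1.82, 1.32, 1.20 and 1.81 FPKM in WT (log2 difference -0.36, SE 0.25, adjusted p = 0.42). KO 2 was the highest of all 8 libraries and the other KO libraries lay below WT. Exons of Hoxa3 share 25.4% of their length with noncoding genes of the opposite strand and 8.0% with one of the same strand, so its value is uncertain. Hoxa4 was at 1.40 to 3.58 FPKM in KO and 2.15 to 3.27 FPKM in WT. Hoxa11, of the paralogue group that mouse kidney formation needs, was at 0.58 to 1.22 FPKM in KO and 0.73 to 1.21 FPKM in WT, with 35.0% of its exons shared with Hoxa11os on the other strand.

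Hoxb, on chromosome 11, had a median difference of -0.28, with 2 of its 8 genes above 0 (Hoxb7 and Hoxb9). Hoxb3 was at 0.72, 4.33, 2.21 and 2.15 FPKM in KO 1 to 4, against 4.14, 3.88, 3.67 and 4.86 FPKM in WT 1 to 4. KO 1 was lowest, KO 2 within the WT range, and KO 3 and 4 between (log2 difference -0.72, SE 0.31, adjusted p = 0.244). Of its exon length 52.9% is shared with Hoxb3os on the opposite strand. Hoxb4, known from blood stem cells, was at 6.18, 9.37, 11.01 and 8.09 FPKM in KO, against 10.67, 12.07, 11.87 and 13.15 FPKM in WT, and KO 3 alone reached the WT range (log2 difference -0.44, SE 0.19, adjusted p = 0.247). Hoxb5, which helps pattern the gut's nerve cells, was at 6.14, 8.43, 8.73 and 8.74 FPKM in KO, against 9.35, 9.14, 10.17 and 11.41 FPKM in WT. Its groups did not overlap in unscaled FPKM (log2 difference -0.30, SE 0.17, limma adjusted p = 0.346, 95% interval -0.68 to 0.08). With median-ratio scaling the Hoxb5 difference was -0.23, and the groups did not overlap for 4 members in place of 5. Under that scaling the groups overlapped for Hoxb5 and Hoxd8 and became separate for Pou6f1. Hoxb6 was at 32.85, 39.47, 39.44 and 41.60 FPKM in KO, against 45.46, 39.96, 46.88 and 51.71 FPKM in WT, overlapping between KO 4 and WT 2 (log2 difference -0.26, SE 0.16, adjusted p = 0.374).

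Hoxb7, the ureteric bud and collecting duct gene, was at 45.87, 25.96, 50.73 and 44.21 FPKM in KO 1 to 4, against 36.98, 35.60, 38.00 and 41.42 FPKM in WT 1 to 4. KO 2 was below and the other 3 KO libraries above all WT libraries (log2 difference 0.09, 95% interval -0.39 to 0.57). Hoxb2 averaged 2.67 ± 0.957 FPKM in KO and 3.40 ± 0.215 FPKM in WT, and 27.3% of its exon length is shared with Hoxb3os. Taken by number over all clusters, the median difference was -0.32 for paralogues 1 to 4 (8 genes), -0.26 for 5 to 8 (11 genes) and -0.06 for 9 to 13 (10 genes). Adjusted for length and GC these medians were -0.47, -0.36 and -0.23, and without KO 3 and 4 they were -0.06, -0.13 and 0.03. The order is a description, and no difference between the number ranges was tested.

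Hoxc, on chromosome 15, had a median difference of -0.07. Hoxc10, its most abundant gene and one of lower trunk and hindlimb, was at 15.85, 15.28, 11.42 and 17.29 FPKM in KO, against 18.50, 11.77, 15.04 and 14.41 FPKM in WT (log2 difference 0.00, SE 0.19, adjusted p = 0.991). The ranges lay on top of each other, and the 95% interval of the difference ran from -0.42 to 0.43. Hoxc13, known for hair and nail, had the highest ratio of KO to WT mean among the members, at 3.24, 0.82, 0.84 and 0.63 FPKM in KO 1 to 4, against 0.87, 0.48, 0.37 and 0.07 FPKM in WT 1 to 4. KO 1 stood apart, the other 3 KO libraries overlapped WT 1, and WT 4 held 3 reads, the floor used here (log2 difference 0.63, SE 0.31, adjusted p = 0.3). Hoxc13 is 1 of 2 members with a group mean below 0.5 FPKM, in WT, and Hoxc5 is the other, in KO. No gene of the table has both group means below that level.

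Hoxc5 was at 0.56, 0.42, 0.36 and 0.18 FPKM in KO, against 0.99, 0.68, 0.44 and 0.47 FPKM in WT (log2 difference -0.25, SE 0.17, adjusted p = 0.42). Hoxc8 was at 1.90, 0.97, 0.77 and 0.54 FPKM in KO, against 2.86, 0.81, 1.43 and 1.16 FPKM in WT (log2 difference -0.31, SE 0.28, adjusted p = 0.538). In both genes WT 1 was the highest library and the groups overlapped. Hoxc11, a paralogue of the Hox11 group, was at 2.18, 2.85, 1.00 and 2.32 FPKM in KO, against 1.81, 1.34, 1.64 and 2.31 FPKM in WT (log2 difference 0.13, SE 0.23, adjusted p = 0.769). Hoxc4, Hoxc6 and Hoxc9 also overlapped, with means of 1.41, 6.05 and 6.74 FPKM in KO and 1.57, 6.73 and 6.89 FPKM in WT.

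Among the TALE genes, the Hox cofactor Pbx2 averaged 9.92 ± 2.01 FPKM in KO and 9.91 ± 0.485 FPKM in WT, and the 95% interval of its difference ran from -0.41 to 0.38. Pbx3 was at 2.16, 1.86, 0.84 and 1.31 FPKM in KO, against 2.39, 1.94, 1.76 and 2.69 FPKM in WT (log2 difference -0.35, SE 0.21, adjusted p = 0.368), and its difference was 0.02 adjusted for length and GC. Pbx4 went the other way and was the one member whose KO values all lay above WT, at 2.4, 2.27, 3.51 and 2.48 FPKM in KO, against 1.54, 2.12, 1.90 and 1.56 FPKM in WT. The gap was narrow (log2 difference 0.39, SE 0.18, adjusted p = 0.262), and the difference was 0.10 adjusted for length and GC.

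Meis3, a Pbx partner, was at 3.61, 6.08, 9.70 and 10.66 FPKM in KO 1 to 4, against 5.42, 5.64, 6.11 and 3.80 FPKM in WT 1 to 4. The male KO 3 and 4 were above all others and the female KO 1 below all (log2 difference 0.37, SE 0.30, adjusted p = 0.489). Meis2 overlapped at 0.57 to 2.76 FPKM in KO and 0.87 to 2.54 FPKM in WT. Irx1 and Irx2, both on chromosome 13, mark the middle segments of the developing nephron and varied within both groups. Irx1 was at 3.77, 2.90, 6.10 and 6.39 FPKM in KO, against 9.72, 6.25, 6.21 and 4.38 FPKM in WT (log2 difference -0.41, SE 0.28, adjusted p = 0.42). Irx2 ranged from 7.20 to 11.96 FPKM in KO and from 5.90 to 19.80 FPKM in WT, with WT 4 the lowest of all 8. Irx3, of the chromosome 8 group, varied widely within each group, at 1.26, 5.16, 1.74 and 7.78 FPKM in KO and 3.84, 2.21, 1.79 and 7.66 FPKM in WT, and the 95% interval of its log2 difference ran from -1.14 to 1.06. Irx5 beside it was at 0.38 to 1.48 FPKM in KO and 0.47 to 1.67 FPKM in WT. Tgif2, a repressor of TGF-beta responses, was at 0.28 to 1.20 FPKM in KO and 0.47 to 0.71 FPKM in WT, with 61.6% of its exons shared with genes of the opposite strand.

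Sex and genotype are partly joined in these libraries, since no WT library was female. Within KO, the 2 female and 2 male libraries did not overlap for 21 of 49 members, beside 62.6% of all genes, with the females above in 13 (36.2% of all genes) and below in 8 (26.4%). In the male libraries alone, with 2 KO and 4 WT, 17 members were lower and 2 (Pbx4 and Meis3) higher at an adjusted p below 0.05 by limma, beside 26.7% and 17.6% of all genes (44.4% together). With sex as a covariate 11 were lower and 1 higher (Meis3), beside 21.6% and 12.6% of all genes (34.2% together). Since no WT library was female, this fit gives the same differences as the male libraries alone and is no second estimate. Members named above had male-only differences of -1.30 for Hoxa6, -0.93 for Hoxa5, -0.78 for Hoxa2, -1.24 for Pou2f1, -0.72 for Emx2, -0.70 for Six4 and -0.61 for Pou3f3 (limma adjusted p between 0.00324 and 0.0202). Without KO 3 and 4, so with the female KO libraries against WT, no member passed, and Hoxa5, Hoxa2 and Hoxa10 turned to 0.14, 0.13 and 0.29. Sex and other differences between KO 1 and 2 and KO 3 and 4 cannot be told apart here.

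Genes that act with or upstream of the homeobox genes were counted from lists, again with 0 called in every list at the adjusted threshold. Of 19 MLL and trithorax group genes, which keep Hox genes active, 16 had a lower mean on the log2 scale in KO, beside 55.5% of all genes, with a median difference of -0.65, and 8 were lower at an unadjusted p below 0.05, beside 11.6% of all genes. Kmt2a (MLL1), their founding member, was at 3.89, 10.35, 3.14 and 4.24 FPKM in KO 1 to 4, against 12.56, 12.36, 9.78 and 12.60 FPKM in WT 1 to 4 (log2 difference -1.12, SE 0.30, adjusted p = 0.148). KO 2 again lay with the WT libraries. Of 30 Polycomb genes, which silence Hox genes, 23 were lower (median -0.21) and 5 at an unadjusted p below 0.05, beside the same 55.5% and 11.6% of all genes. Among the 5 was Ezh2, the methyltransferase, at 4.55, 4.31, 2.67 and 2.50 FPKM in KO, against 4.47, 7.41, 7.77 and 7.08 FPKM in WT. The median over all genes was -0.06. Adjusted for length and GC, the medians were -0.33 for the MLL and trithorax list, -0.04 for the Polycomb list and 0.00 for all genes.

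Retinoic acid switches on Hox genes along the axis, and of 12 measured axial regulators 6 were higher and 6 lower (median 0.04). Cyp26b1, which breaks down retinoic acid, was at 7.64, 2.78, 2.46 and 5.01 FPKM in KO, against 0.98, 0.25, 0.15 and 0.04 FPKM in WT. Every KO library lay above every WT library, and the adjusted p was 0.0724 by limma (log2 difference 1.96, SE 0.32). Its WT mean was 0.357 FPKM, and no gene of the table has both group means below 0.5 FPKM. Cyp26b1 is therefore listed through its KO values alone. Aldh1a2, which makes retinoic acid, was at 78.49 to 107.01 FPKM in KO and 61.11 to 93.52 FPKM in WT. The 4 measured partners of Six4 and its relatives, Eya and Dach genes, had a median of -0.55. Among them Dach1 was at 0.39, 0.70, 0.16 and 0.35 FPKM in KO, against 1.74, 1.56, 1.07 and 2.66 FPKM in WT (log2 difference -0.96, limma adjusted p = 0.109). With a KO mean of 0.399 FPKM, Dach1 is listed through its WT values alone. Of 15 kidney lineage genes 13 were lower (median -0.42), with Tfap2b at 1.25, 1.13, 2.26 and 1.14 FPKM in KO, against 3.72, 5.89, 6.04 and 6.01 FPKM in WT (log2 difference -1.40, adjusted p = 0.0636). Tfap2b, a factor of distal tubule and collecting duct, is also among the collecting duct markers. The 3 other TALE partners had a median of -0.15, and Tgif1 was at 18.89 to 32.96 FPKM in KO and 32.94 to 40.35 FPKM in WT.

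Noncoding transcripts of the Hox clusters were also counted. Of 9 measured, 7 were lower in KO and 2 higher (median -0.25), with 0 at an unadjusted p below 0.05. Hoxb5os was at 2.11, 10.60, 2.99 and 5.78 FPKM in KO 1 to 4, against 7.82, 6.66, 6.80 and 13.75 FPKM in WT 1 to 4. KO 2 was high and KO 1 low, an order also seen in Hoxb3. Gm53, another transcript of this list, was at 10.79 to 15.48 FPKM in KO and 13.96 to 15.12 FPKM in WT. Of 18 other homeobox genes measured, 8 were higher and 10 lower in KO, with a median difference of -0.06.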

How the data were processed

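Bulk RNA-seq of 8 mouse libraries was used, 4 KO and 4 WT, grouped by sample title. STAR 2.4.1d, FastQC, DESeq2 and build GRCm38 are named in the submitters' processing notes. The deposited table is called raw counts by its name, but its library values have decimals, sum to 265721.2 to 320806.6 per library and nearly all low values become whole reads once multiplied by exon length. They were therefore taken as FPKM, and every level printed rests on that inference, since the authors do not state a unit in the sources used here. The authors also deposited log2 fold changes and p-values of their own comparison. Each of the 8 library columns was matched to a sample. Reads were recovered from FPKM and GENCODE M21 exon length, and 95.0% to 95.5% of low values came out whole within 0.05 read. Intervals and floors cover counting error or library spread only.

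The test was limma 3.58.1 (R 4.3.3) with a mean trend on log2(FPKM + 1), over 14145 genes and 8 libraries, with Benjamini-Hochberg adjustment at 0.05. Fold changes on this scale understate those of low genes. Only the main limma fit was tested on simulated data, with independent normal noise of equal spread in both groups. The larger spread in KO and the alternative procedures were not part of that simulation. The members and gene lists were chosen with earlier results of these data known. Values in every library are given for the 4 members of lowest p in each of 6 families and the member of highest mean in each, apart from members not reported here (4 are counted in the totals but not named or plotted); other genes named were chosen after their values were seen. The 4 promoters are those of members whose groups do not overlap in unscaled FPKM and that have a RefSeq window. Same-numbered KO and WT libraries were not treated as pairs in the main test, and their correlations cannot decide whether they are. Alternatives were another pseudocount, a filter on low values, limma-voom on recovered reads, adjustment for gene length and GC content, sex as a covariate, male libraries alone, the replicate number as a block, and leaving out libraries.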

Additional observations from a re-analysis of the deposited data

Results flagged for a closer look

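In 6 of 98 groups of 4 libraries, 1 library stood apart from the other 3 by Dixon's criterion for outliers, which chance meets in about 1 in 20 groups. KO 2 was highest for Hoxa3, at 2.24 FPKM against 0.59 to 0.75 FPKM in the other KO libraries, and for Hoxa6, at 5.95 FPKM against 1.46 to 1.95 FPKM. KO 1 was lowest for Hoxb5, at 6.14 FPKM against 8.43 to 8.74 FPKM, and highest for Hoxc13, at 3.24 FPKM against 0.63 to 0.84 FPKM. WT 4 was lowest for Hoxb9, at 82.0 FPKM against 95.08 to 96.94 FPKM in the other WT libraries, and WT 1 was highest for Hoxc9, at 8.10 FPKM against 6.35 to 6.57 FPKM.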

How the results depend on the processing

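The median difference of the members, -0.24, moved by less than the library spread under every alternative tried, but it was -0.13 without KO 3 and 4, -0.18 with median-ratio scaling and -0.28 to -0.16 when 1 library was left out. Of 511 values for the 27 members named by rule, 459 kept direction and side of the threshold. Another 29 passed it in place of missing it, and 23 changed sign, in 8 members. The sex covariate and the males alone give the same differences but are both counted. They make up 10 and 15 of the 29, and 3 each of the 23. Genes past the threshold numbered 11, and 3 with pseudocount 0.1, 2 adjusted for length and GC, 4838 with sex as a covariate, 6275 in males alone, and 1 to 1139 leaving out 1 library, the last without KO 2. With the replicate number as a block there was 1, and 9 members at an unadjusted p below 0.05 (18.4%, beside 18.4% of all genes). Same-numbered libraries correlated at 0.045, -0.208, 0.606 and -0.044 for numbers 1 to 4. With 4 libraries per group, these values cannot decide whether the numbers pair libraries. Members past the threshold numbered 0, and 12 with the sex covariate, 19 in males alone and 0 to 4 leaving out 1 library. At an unadjusted p below 0.05 there were 10, and 16 with the sex covariate (32.7%, beside 45.5% of all genes), 21 in males alone (42.9%, beside 52.6%) and 5 to 13 leaving out 1 library (10.2% to 26.5%, beside 11.1% to 29.7%). Groups did not overlap for 5 members, and for 25 in males alone (51.0%, beside 61.3% of all genes), 12 without KO 3 and 4 (24.5%, beside 25.3%), and 6 to 15 leaving out 1 library (12.2% to 30.6%, beside 12.4% to 27.6%). Among the 27 members named by rule, sign changes without KO 3 and 4 were Hoxa5 0.14, Hoxa2 0.13, Hoxa10 0.29 and Hoxb9 -0.05. Adjusted for length and GC they were Hoxb9 -0.17, Hoxc11 -0.18, Hoxc10 -0.21 and Pbx3 0.02. With the sex covariate and in males alone they were Hoxc11 -0.09, Hoxc10 -0.06 and Hoxd9 0.35. Leaving out 1 library gave -0.25 to 0.12 for Hoxa10, -0.02 to 0.13 for Hoxb9, -0.10 to 0.12 for Hoxc10 and -0.56 to 0.03 for Hoxd9. The causes were not tested. Fewer libraries remain in the male and left-out fits, and low members such as Hoxc13, with 3 reads in WT 4, are limited by depth.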
